A study of Mus musculus with 2 samples.

Results

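Il1a, Il1b, Il1rn, Il1r2, Il18, Il18bp, Il1f9, Nlrp3, Casp1 and Pycard are genes of the interleukin 1 family and of the inflammasome that processes its cytokines. They were chosen by symbol, and all 10 were found among the 31053 features of both libraries. Single-cell RNA sequencing had been performed on mouse gut lamina propria cells that the labels call cd11b+, a gate on the myeloid surface protein whose gene is Itgam. One library was made from WT mice and 1 from mice labelled LncRNA17Rik knockout (KO). The text of the study does not use this label. It is read here as the long non-coding RNA lncLy6c, which the study deleted with CRISPR-Cas9. The study describes pooled males of 8 weeks, puts the KO on a C57BL/6J background, and gives n = 6 without saying whether this is per genotype. No treatment is given for either group. The deletion was not checked on the counts, because its label matches no gene symbol among the features. Each genotype therefore has a single library, no difference between them has a replicate check, and all intervals below are 95% intervals that cover counting error only.

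Interleukin 1 alpha (Il1a) and interleukin 1 beta (Il1b) act through the same receptor. The antagonist encoded by Il1rn occupies that receptor without signalling, and the decoy receptor encoded by Il1r2 binds the agonists without passing a signal on. Interleukin 1 beta and interleukin 18 are made as precursors and are cut by caspase 1 (Casp1) in an inflammasome, for which Nlrp3 is a sensor and Pycard, also called ASC, the adaptor. Il18bp encodes a secreted protein that binds interleukin 18, and Il1f9 encodes interleukin 36 gamma. Macrophages of the healthy colon are known for making little mature interleukin 1 beta in spite of constant contact with bacteria. The counts are of RNA, and they show neither cleavage nor secretion.

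After the filters of the study, 2597 WT and 2514 KO cells remained, with a median of 5073 and 6564.5 unique molecular identifiers (UMIs, each standing for 1 captured RNA molecule) per cell. Levels are UMIs per 1000000 UMIs (CPM) summed over the cells of a class. Libraries of this kind count the 3' end of each transcript, so levels are not scaled by length and the forms of Il1rn that differ at the 5' end cannot be told apart. Classes are called by the markers raised in a cluster: neutrophil-like cells (80 WT, 264 KO), inflammatory monocyte-like cells (541, 462), resident macrophage-like cells (299, 141), and the conventional dendritic cells cDC2-like (258, 512) and cDC1-like (111, 294). The monocyte-like class was filled by different clusters in the 2 libraries. Cluster 2, led by Ly6i, Inhba and Cxcl9, held 453 WT and 119 KO cells, and cluster 5, led by Chil3, Ace and Lyz2, held 72 and 305. A further cluster of 225 WT and 409 KO cells, led by Serpinb2, Retnlg and Ccr3, stayed unnamed and is called the Ccr3 cluster. It was shallow, with medians of 798 and 971 UMIs. The sorted gate was not pure by its defining marker, since Itgam was at 256 CPM in WT monocyte-like cells but at 5.67 CPM in the 145 WT epithelial-like cells and 41.6 CPM in the 236 WT plasma cell-like cells.

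Il1a and Il1b are neighbours on the minus strand of mouse chromosome 2. Il1a spans chr2:129299610-129309972 and Il1b spans chr2:129364570-129371139 (GRCm38, GENCODE M21), with 54597 bases between them. The other members lie elsewhere on this chromosome (Il1rn at chr2:24336853-24351494 and Il1f9 at chr2:24186476-24193568) or on chromosomes 1, 7, 9 and 11. The 120 bases before the start of Il1a and Il1b are shown because the levels of these neighbours differed between the libraries in unlike ways. Both stretches are given 5′ to 3′ on the minus strand from the RefSeq promoter table (GRCm38.p6), at chr2:129309973-129310092 and chr2:129371140-129371259, and capitals mark a TATAAA box and, in Il1a, an AP-1 match.
Il1a: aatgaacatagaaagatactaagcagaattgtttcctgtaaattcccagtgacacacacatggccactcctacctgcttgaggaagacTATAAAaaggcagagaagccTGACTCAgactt
Il1b: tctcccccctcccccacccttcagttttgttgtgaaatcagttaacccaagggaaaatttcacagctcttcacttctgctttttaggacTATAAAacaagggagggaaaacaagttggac

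The TATAAA box began 32 bases before the annotated start in Il1a and 31 bases before it in Il1b. On both strands, TATAAA occurred in 13.6% of the 32851 promoter windows of the table, which reach from 250 bases before to 50 bases after a start. The letters TGANTCA (AP-1) were found 12 bases before the Il1a start and in 7.81% of all windows, and they were not in the Il1b window. An NF-kB pattern, GGG and CC with 5 bases of any kind between them (in 50.8% of windows), and TTGCNNAA (C/EBP, in 10.8%) were in neither window, and GAGGAA (PU.1, in 28.3%) was in that of Il1a. A match is a description of letters and not of binding.

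Il1b was the most abundant member in each of the 5 named myeloid classes. Neutrophil-like cells held 7936 CPM (7555 to 8330) in the WT and 5112 CPM (4960 to 5267) in the KO library. Monocyte-like cells followed with 3392 CPM (3327 to 3458) and 2907 CPM (2855 to 2960), then resident macrophage-like cells with 2528 CPM (2456 to 2601) and 1579 CPM (1511 to 1649). The order continued with cDC2-like cells at 1254 CPM (1212 to 1297) and 1212 CPM (1187 to 1237) and cDC1-like cells at 491 and 615 CPM. These 5 classes stood in the same order in both libraries, with no overlap of counting intervals between neighbours. Because neutrophil-like cells were few and shallow, they gave only 7.34% of the WT and 13.5% of the KO Il1b UMIs. Monocyte-like cells gave 46.9% and 37.1%, and cDC2-like cells 15.1% and 28.8%.

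**Figure D1:**
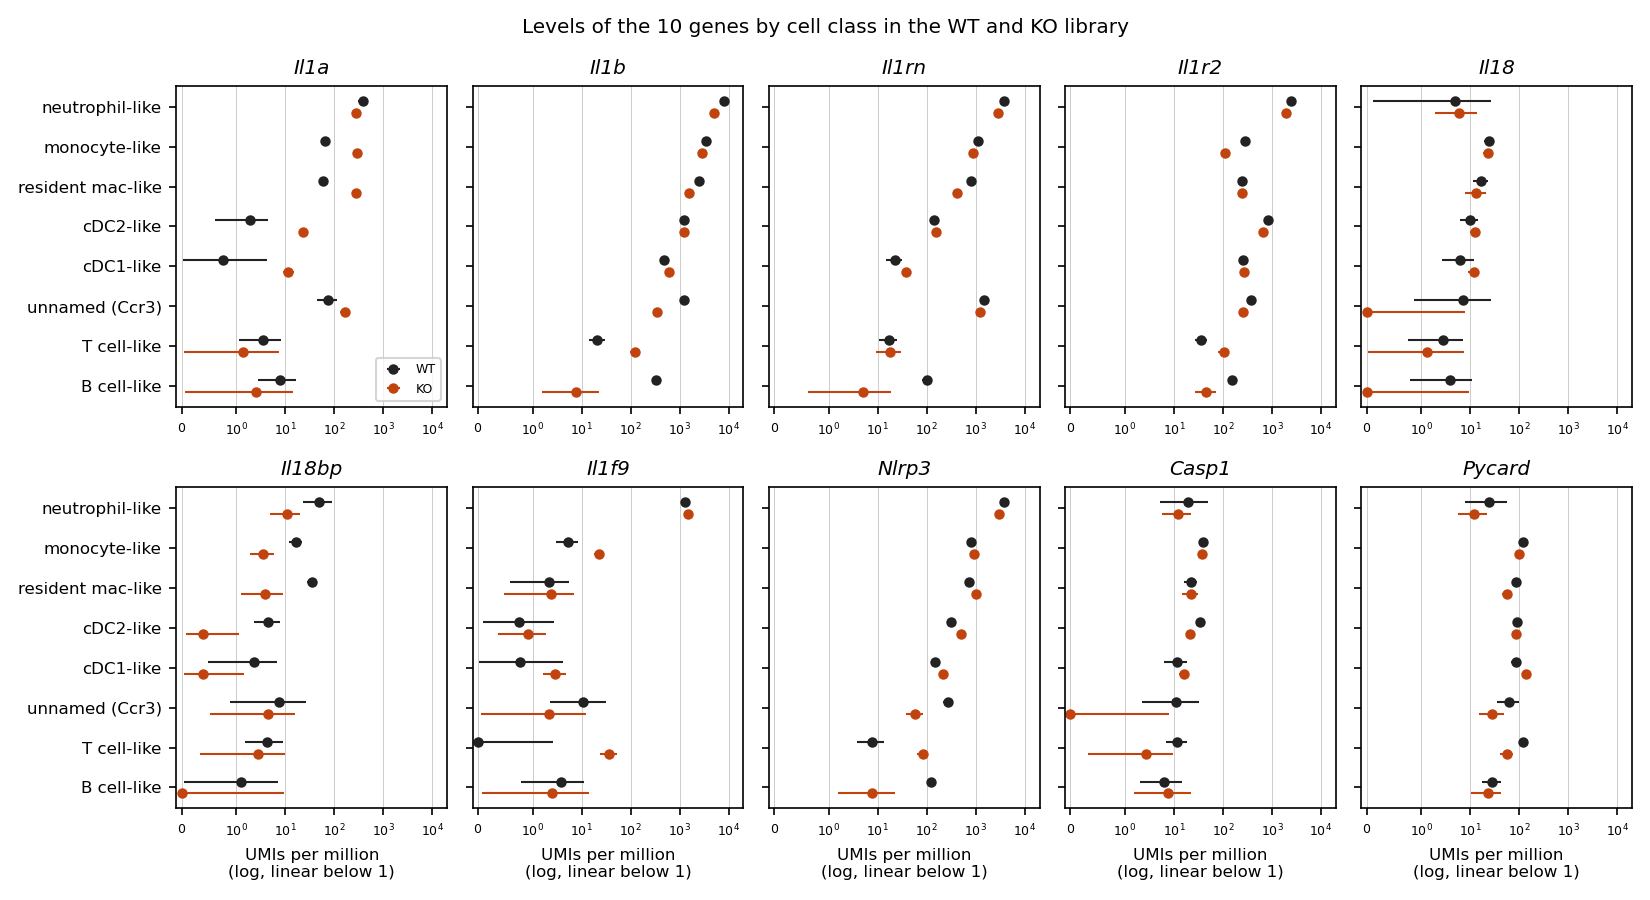
Levels of the 10 members (CPM, logarithmic above 1 and linear below) in 8 cell classes of the WT (black) and KO (orange) library, with points for the class sum and bars for exact Poisson 95% intervals. Il1b, Il1rn, Il1r2, Il1f9 and Nlrp3 were highest in neutrophil-like cells, where Pycard was at 24.3 and 11.9 CPM.

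After each cell had been thinned to 1000 UMIs, an Il1b UMI was found in 96.1% (88.9 to 99.2%) of the WT and 88.2% (83.6 to 91.9%) of the KO neutrophil-like cells. In monocyte-like cells the shares were 78.7% and 68.7%, in resident macrophage-like cells 68.7% and 54.1%, and in cDC2-like cells 49.2% and 46.9%. B cell-like cells, which served as the background, were at 5.73% (2.89 to 10.0%) in WT and 0% in KO (0 of 84 cells, upper limit 4.30%). Among thinned T cell-like cells, 6 of 240 in WT and 6 of 109 in KO had an Il1b UMI. Without thinning, 14.1% and 3.53% of B cell-like cells carried an Il1b UMI at median depths of 2978 and 4394 UMIs. Of the 259 Il1b UMIs in WT B cell-like cells, 74.1% came from 5 cells.

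Between the libraries, Il1b differed by less than 2-fold in each of these 5 classes. As a log2 ratio of KO to WT, resident macrophage-like cells stood at -0.68 (-0.76 to -0.60), neutrophil-like cells at -0.63 (-0.72 to -0.55), monocyte-like cells at -0.22 (-0.26 to -0.18) and cDC2-like cells at -0.05 (-0.11 to 0.01). The value of cDC1-like cells was positive, at 0.33 (0.20 to 0.45). Inside the monocyte-like class the clusters differed in direction, with Il1b higher in KO in cluster 2, at 3651 CPM in the WT and 5461 CPM in the KO library, and close to even in cluster 5, at 1824 and 1685 CPM. The make-up of cluster 2 moved with the library. The summed level of its 12 inflammatory monocyte markers was 6023 CPM in WT against 2798 CPM in KO, that of 12 resident macrophage markers 4574 against 3967 CPM, Ly6c2 1233 against 220 CPM and Ccr2 882 against 433 CPM. In its KO cells the resident macrophage sum was thus above the monocyte sum, although the cluster was named over both libraries together. The part of these markers in the Il1a, Il1b and Il1rn differences of this cluster was not tested. With the libraries clustered apart, the value in resident macrophage-like cells was 0.067, so no direction is drawn for Il1b in that class. The Ccr3 cluster had 1222 CPM in the WT and 353 CPM in the KO library (log2 ratio -1.79, -2.07 to -1.52). Its median cell had no Il1b UMI, and the top 10% of cells held 83.4% and 93.9% of them. Markers of other cells were also lower in the KO cells of this cluster, with 12 resident macrophage markers summing to 1417 and 186 CPM (2 and 3 of them at 0), 10 plasma cell markers to 3411 and 80.2 CPM (2 and 5 at 0), and H2-Aa at 2345 and 451 CPM. Their part in the Il1b difference was not tested.

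Il1a was past 2-fold higher in KO in 4 of the 5 named myeloid classes, the exception being neutrophil-like cells. Resident macrophage-like cells held 109 UMIs or 58.8 CPM (48.3 to 70.9) in the WT and 354 UMIs or 277 CPM (249 to 308) in the KO library (log2 ratio 2.24, 1.92 to 2.56). The make-up of this class also moved between the libraries. Its 12 resident macrophage markers summed to 18018 CPM in WT against 20935 CPM in KO, the 12 inflammatory monocyte markers to 1134 against 574 CPM (none of either list at 0), the 10 plasma cell markers to 1214 against 68.9 CPM (1 and 2 at 0) and the 10 mast cell markers to 154 against 312 CPM (7 and 8 at 0). Ly6c2 stood at 98.1 against 3.92 CPM and Ccr2 at 497 against 172 CPM. Their part in the Il1a, Il1b, Il1rn, Il18bp and Nlrp3 differences of the class was not tested. Monocyte-like cells held 65.8 CPM (57.0 to 75.5) in the WT and 286 CPM (270 to 303) in the KO library (log2 ratio 2.12, 1.90 to 2.34, and 1.03 to 2.98 over the processing alternatives). In the KO cells of cluster 2, resident macrophage markers summed to more than inflammatory monocyte markers (3967 and 2798 CPM). The KO library was higher in both main clusters of the class, at 76.5 and 640 CPM in cluster 2 (log2 ratio 3.06, 2.83 to 3.30) and at 15.3 and 113 CPM in cluster 5 (2.89, 1.83 to 4.22). In cluster 5 the 12 neutrophil markers also summed to more in KO (691 and 1980 CPM), with S100a8 at 45.9 and 478 CPM, while Ccr2 was at 1294 and 573 CPM and H2-Aa at 1789 and 631 CPM. Dendritic cells had far less Il1a. In cDC2-like cells there were 5 WT and 170 KO UMIs, or 1.87 and 22.5 CPM (log2 ratio 3.58, 2.33 to 5.22). Beside this, inflammatory monocyte markers summed to 2374 and 1004 CPM in the class (none of 12 at 0), mature dendritic cell markers to 1147 and 1834 CPM (none of 10 at 0), mast cell markers to 928 and 87.9 CPM (3 and 7 of 10 at 0) and plasma cell markers to 687 and 70.4 CPM (2 and 2 of 10 at 0). Of these KO UMIs, 112 lay in cluster 14, led by Mgl2 and Ccl17, which held 2 WT and 135 KO cells. In cluster 3, led by Cd209a and Clec10a, Il1a was at 3 WT and 41 KO UMIs (log2 ratio 2.43, 0.78 to 4.77). In cDC1-like cells there were 1 WT and 59 KO UMIs (log2 ratio 3.92, 1.38 to 9.24), and a single KO cell held 25 of them. There the neutrophil markers summed to 29.8 and 203 CPM (5 and 1 of 12 at 0), with S100a8 at 1.53 and 50.3 CPM, and the 10 cDC1 markers to 2224 and 1589 CPM (none at 0). In the same class inflammatory monocyte markers summed to 1680 and 859 CPM (1 and 0 of 12 at 0). Plasma cell markers summed to 630 and 100 CPM (1 and 3 of 10 at 0) and mast cell markers to 211 and 91.2 CPM (3 and 8 of 10 at 0). The part of these markers in the Il1a differences of cluster 5, cDC2-like and cDC1-like cells was not tested.

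Neutrophil-like cells were the exception. Their Il1a level was 380 CPM (300.2 to 474) in the WT and 273 CPM (239 to 311) in the KO library (log2 ratio -0.48, -0.85 to -0.09). No processing alternative was run for this ratio. The 12 neutrophil markers of this class summed to 52632 CPM in WT against 90506 CPM in KO (none at 0), with S100a8 alone at 16704 against 30353 CPM. Resident macrophage markers summed to 1237 against 372 CPM (3 and 2 of 12 at 0) and plasma cell markers to 1597 against 54.6 CPM (4 and 5 of 10 at 0). Their part in the lower KO levels of Il1a, Il1b and Il1rn in this class was not tested. In WT this level was above that of every other class of at least 50 cells, whereas in KO the intervals of neutrophil-like, monocyte-like and resident macrophage-like cells overlapped. The Ccr3 cluster held 72.5 CPM in the WT and 163 CPM in the KO library (log2 ratio 1.16, 0.44 to 1.96). Levels in B cell-like cells were 7.65 and 2.54 CPM, those in T cell-like cells 3.47 and 1.35 CPM, and no Il1a UMI was found in epithelial-like cells.

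The share of cells with an Il1a UMI also differed at equal depth in macrophages and monocytes. After thinning it was 4.36% (2.27 to 7.50%) of the WT and 21.8% (15.1 to 29.8%) of the KO resident macrophage-like cells, and 4.72% (3.05 to 6.95%) and 14.7% (11.6 to 18.4%) of monocyte-like cells. In neutrophil-like cells it was 22.4% (13.6 to 33.4%) and 17.3% (12.8 to 22.5%). No Il1a UMI remained in thinned cDC1-like or B cell-like cells of either library. The UMIs were concentrated in few cells, since the top 10% of KO resident macrophage-like cells held 73.2% of the Il1a UMIs of that class, against 82.6% in WT. In resident macrophage-like, monocyte-like and neutrophil-like cells, most cells with an Il1a UMI after thinning also had an Il1b UMI. Only 3 WT and 30 KO neutrophil-like cells had no Il1b UMI, so little else was possible there. Of KO neutrophil-like cells, 18.7% (13.8 to 24.4%) with and 6.67% (0.818 to 22.1%) without an Il1b UMI had an Il1a UMI, with overlapping intervals. Of KO resident macrophage-like cells, 30.6% (20.2 to 42.5%) of those with an Il1b UMI and 11.5% (4.74 to 22.2%) of those without had an Il1a UMI after thinning. Of the KO cells of the Ccr3 cluster with an Il1a UMI after thinning, 3 also had an Il1b UMI and 27 did not.

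The mix of agonists differed with Il1a. For each Il1b UMI, resident macrophage-like cells had 0.0232 Il1a UMIs (0.0190 to 0.0281) in WT against 0.176 (0.156 to 0.197) in KO. The corresponding values were 0.0194 and 0.0984 in monocyte-like cells and 0.00150 and 0.0185 in cDC2-like cells. In neutrophil-like cells they were 0.0479 (0.0376 to 0.0601) and 0.0534 (0.0466 to 0.0610), and these intervals overlapped. Some stress genes differed in part of the classes in which Il1a did. Of 17 genes known to respond to tissue dissociation, Hspa1a and Hspa1b were past 2-fold higher in KO in resident macrophage-like cells (log2 ratios 1.62 and 1.80), monocyte-like cells (1.48 and 1.60) and cDC1-like cells (1.20 and 1.20), and Atf3 in the first and the last of these. In cDC2-like cells, where the Il1a ratio was 3.58, none of the 17 was higher and 3 were lower (Fos, Egr1 and Btg2), and in neutrophil-like cells none was higher and 2 were lower. In cluster 2, 6 of the 17 were past 2-fold lower and none higher, whereas in cluster 5, 2 were higher and none lower. Among all genes measured, the shares past 2-fold higher in KO were 2.82% in resident macrophage-like, 2.09% in monocyte-like and 2.07% in cDC1-like cells and 3.52% in cluster 5. Those lower in KO were 5.85% in cDC2-like cells, 7.18% in neutrophil-like cells and 9.04% in cluster 2. The part of these 17 genes in the Il1a difference was not tested.

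**Figure D2:**
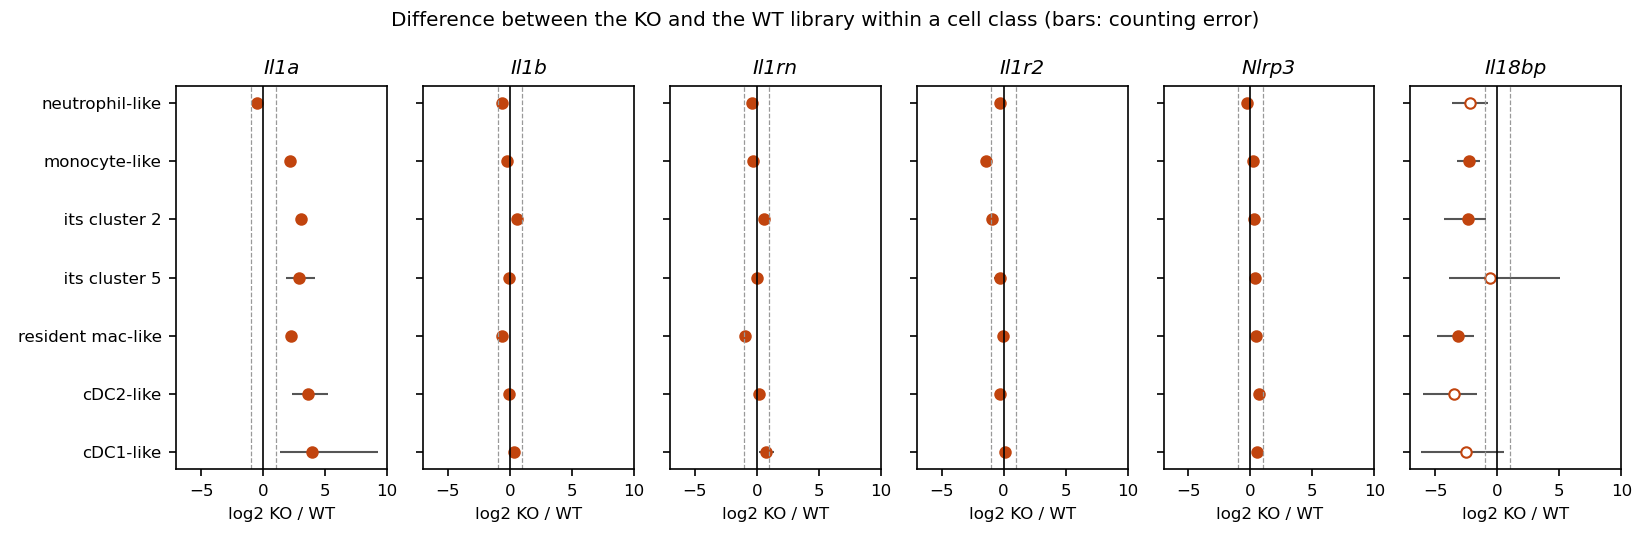
Log2 ratio of the KO to the WT level of 6 members in 5 cell classes and in both main clusters of the monocyte-like class, with exact conditional binomial 95% intervals for counting error. Dashed lines mark a 2-fold difference and open points rest on fewer than 50 UMIs, and Il1a lies right of the 2-fold line in all rows except neutrophil-like cells, at -0.48.

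The antagonist Il1rn was also highest in neutrophil-like cells, at 3719 CPM (3460 to 3993) in the WT and 2896 CPM (2782 to 3013) in the KO library. Among whole classes and unnamed clusters the Ccr3 cluster came next in both libraries, at 1450 CPM (1311 to 1599) and 1212 CPM (1113 to 1316). Monocyte-like cells had 1095 and 892 CPM, and resident macrophage-like cells 802 CPM (761 to 844) and 420 CPM (385 to 457) (log2 ratio -0.93, -1.08 to -0.79). With the libraries clustered apart the last value was 0.19, so no direction is drawn for Il1rn in resident macrophage-like cells. Il1rn was low in cDC2-like cells, at 140 and 156 CPM, and lowest among these classes in cDC1-like cells, at 22.2 and 37.8 CPM. Within the monocyte-like class it was higher in KO in cluster 2 (1161 and 1765 CPM, log2 ratio 0.60, 0.52 to 0.69) and even in cluster 5 (-0.02, -0.23 to 0.20), as Il1b was. After thinning, an Il1rn UMI was found in 80.3% of the WT and 74.9% of the KO neutrophil-like cells and in 57.8% and 47.7% of the Ccr3 cluster, where only 83 of 225 WT and 199 of 409 KO cells were deep enough to be thinned. In B cell-like cells the shares were 4.17% and 0%.

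The decoy receptor Il1r2 had another distribution. It was at 2434 CPM (2225 to 2657) in the WT and 1954 CPM (1861 to 2051) in the KO neutrophil-like cells and next highest in cDC2-like cells, at 822 CPM (788 to 857) and 661 CPM (643 to 680). Because of their number and depth, cDC2-like cells held 44.4% of the WT and 54.8% of the KO Il1r2 UMIs. Within them, cluster 13, led by Plet1 and Itgae, reached 1203 CPM in the WT and 1339 CPM in the KO library. Monocyte-like cells had 284 CPM (265 to 303) in the WT and 108 CPM (98.1 to 118) in the KO library (log2 ratio -1.39, -1.56 to -1.23). The ratio was smaller inside each cluster, at -0.93 (-1.17 to -0.70) within cluster 2 and -0.33 (-0.78 to 0.14) within cluster 5. Resident macrophage-like cells were nearly equal, at 247 and 240 CPM.

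The balance of agonists to antagonist was the sum of Il1a and Il1b UMIs divided by Il1rn UMIs. It compares classes and does not measure protein. It was 22.2 (15.3 to 33.4) in the WT and 16.6 (14.3 to 19.3) in the KO cDC1-like cells and 8.95 (8.04 to 9.99) and 7.92 (7.45 to 8.42) in cDC2-like cells. Macrophages and monocytes lay lower. Resident macrophage-like cells had 3.23 (3.04 to 3.42) in WT and 4.42 (4.02 to 4.87) in KO, and monocyte-like cells 3.16 (3.04 to 3.28) and 3.58 (3.45 to 3.72). Within cluster 2 the UMIs of Il1a, Il1b and Il1rn were 191, 9118 and 2899 in WT against 705, 6016 and 1944 in KO. Within cluster 5 they were 7, 834 and 213 against 308, 4575 and 1249. The balance was thus somewhat higher in KO in cluster 2 and nearly even in cluster 5. Neutrophil-like cells, with the highest level of agonists and of antagonist, had 2.24 (2.05 to 2.44) and 1.86 (1.77 to 1.95). Among the myeloid units only the Ccr3 cluster had fewer agonist than antagonist UMIs, at 0.892 (0.772 to 1.03) in WT, whose interval includes 1, and 0.426 (0.364 to 0.496) in KO.

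Il1b gave most of the agonist UMIs in each of these classes, while in the Ccr3 cluster of the KO library 75 of 238 came from Il1a. Without Il1a, the ratio of Il1b to Il1rn was 3.15 (2.97 to 3.34) in the WT and 3.76 (3.42 to 4.14) in the KO resident macrophage-like cells, and 3.10 and 3.26 in monocyte-like cells, where the intervals overlapped. On the log2 scale, KO minus WT, this difference without Il1a was 0.25 in resident macrophage-like and 0.074 in monocyte-like cells. The ratio of Il1a alone to Il1rn in resident macrophage-like cells was 0.0733 (0.0598 to 0.0891) in WT against 0.660 (0.576 to 0.757) in KO. With Il1a, the difference was 0.45 in resident macrophage-like, 0.18 in monocyte-like, -0.27 in neutrophil-like and -0.18 in cDC2-like cells. Over the processing alternatives these values ranged from 0.025 to 0.58, from 0.11 to 0.63, from -0.37 to -0.22 and from -0.44 to 0.67. The lowest resident macrophage-like value was thus close to even. No direction is therefore drawn for resident macrophage-like and cDC2-like cells, and no size for monocyte-like cells.

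**Figure D3:**
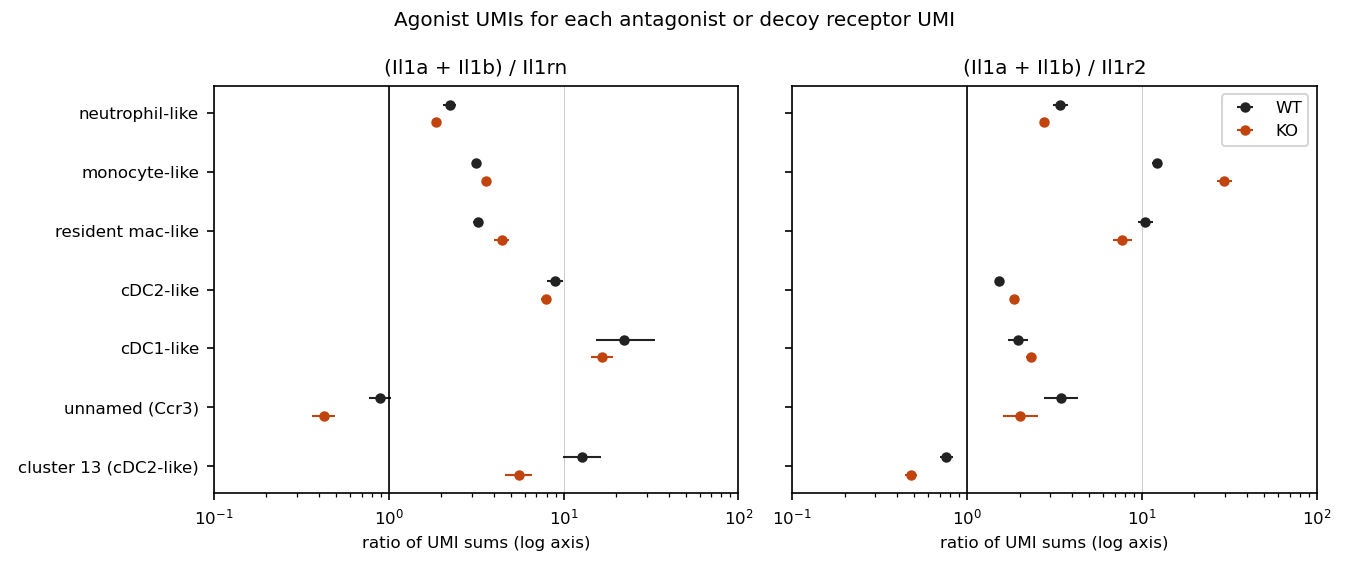
Agonist UMIs (Il1a plus Il1b) for each Il1rn UMI (left) and each Il1r2 UMI (right), on a logarithmic axis, by cell class in the WT (black) and KO (orange) library with exact 95% counting intervals. The line at 1 marks equal UMIs, below which the Ccr3 cluster lies for Il1rn and cluster 13 for Il1r2.

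Against the decoy receptor the classes stood in another order. For each Il1r2 UMI, monocyte-like cells had 12.2 agonist UMIs (11.4 to 13.1) in WT and 29.6 (26.9 to 32.6) in KO. Within cluster 2 this was 11.8 (10.98 to 12.7) against 36.9 (31.9 to 43.0), and within cluster 5, which held most KO cells of the class, 16.8 (12.6 to 22.8) against 20.7 (18.2 to 23.7), where the intervals overlapped. Resident macrophage-like cells had 10.5 (9.52 to 11.6) and 7.75 (6.87 to 8.75), and neutrophil-like cells 3.42 (3.09 to 3.78) and 2.76 (2.60 to 2.92). No processing alternative was run for the balance against Il1r2. Since no direction is drawn for Il1b in resident macrophage-like cells, none is drawn for this balance there. The dendritic cell classes, which had the highest agonist to antagonist balance, were low here, with 1.96 and 2.33 in cDC1-like cells and 1.53 (1.45 to 1.61) and 1.87 (1.80 to 1.93) in cDC2-like cells. Among the units plotted, decoy receptor UMIs exceeded agonist UMIs in cluster 13 alone, with 0.763 (0.699 to 0.832) in WT and 0.480 (0.442 to 0.521) in KO. Il1r2 was among the 10 leading genes of that cluster against all other cells, although it was kept out of the clustering.

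Interleukin 18 had few UMIs in this sort. Il18 was at 64.6 CPM (54.6 to 75.9) in WT epithelial-like cells, which held 44.3% of the WT Il18 UMIs, and at 24.4 CPM (19.2 to 30.6) in the WT and 22.9 CPM (18.5 to 28.0) in the KO monocyte-like cells. Resident macrophage-like cells held 16.7 and 13.3 CPM and cDC2-like cells 9.75 and 12.4 CPM, in each case with overlapping intervals. Within cluster 2 it was lower in KO, at 55 and 6 UMIs (log2 ratio -2.02, -3.52 to -0.80). Its binding protein differed. Il18bp in resident macrophage-like cells was at 65 UMIs or 35.0 CPM (27.1 to 44.7) in the WT and 5 UMIs or 3.92 CPM (1.27 to 9.14) in the KO library (log2 ratio -3.16, -4.83 to -1.87), next to the lower Ly6c2, Ccr2 and summed monocyte markers of the KO class given with Il1a. Monocyte-like cells had 50 and 14 UMIs, or 16.3 CPM (12.1 to 21.5) and 3.44 CPM (1.88 to 5.78) (log2 ratio -2.24, -3.21 to -1.36). In cluster 5 there were only 1 and 4 UMIs, and in cluster 2 there were 46 and 4. The rest lay in a smaller cluster of the class with 16 WT and 38 KO cells. Most WT UMIs of the class were therefore in cluster 2, while most of its KO cells were in cluster 5. Inside cluster 2 the Il18bp level was also past 2-fold lower in KO. The KO level was also lower in neutrophil-like cells (10 and 9 UMIs, log2 ratio -2.19, -3.66 to -0.73) and in cDC2-like cells (12 and 3 UMIs, -3.50, -5.97 to -1.62), where fewer than 50 UMIs were counted in all.

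For each Il18bp UMI there were 0.477 Il18 UMIs (0.300 to 0.742) in WT and 3.40 (1.20 to 11.8) in KO resident macrophage-like cells. In monocyte-like cells the ratio was 1.5 (1.04 to 2.19) and 6.64 (3.77 to 12.6). In resident macrophage-like cells Il18 itself did not differ beyond counting error. Within cluster 2 the WT and KO ratios were 1.20 (0.793 to 1.81) and 1.5 (0.356 to 7.23). Within cluster 5 it was 16 (2.49 to 671) and 18 (6.73 to 67.8), from 16 and 72 Il18 UMIs against 1 and 4 of Il18bp. The intervals overlapped in both clusters, and different clusters filled the class in the 2 libraries.

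Il1f9 was nearly confined to neutrophil-like cells, at 1290 CPM (1139 to 1455) in the WT and 1512 CPM (1430 to 1597) in the KO library. They held 86.6% of the 306 WT and 89.7% of the 1419 KO UMIs of the gene while being 3.08% and 10.5% of the cells. At equal depth an Il1f9 UMI was found in 40.8% (29.6 to 52.7%) of the WT and 55.3% (49.0 to 61.5%) of the KO neutrophil-like cells and in at most 1.36% of monocyte-like, resident macrophage-like, cDC2-like and cDC1-like cells. In monocyte-like cells it was at 5.21 and 22.4 CPM (log2 ratio 2.10, 1.33 to 2.97), and 85 of the 91 KO UMIs lay in cluster 5. There the summed level of the 12 neutrophil markers was 691 CPM in the WT and 1980 CPM in the KO library, with 1 and 0 of them at 0 UMIs. Their part in the Il1f9 difference was not tested. At Leiden resolution 2 the direction was reversed, so none is drawn.

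**Figure D4:**
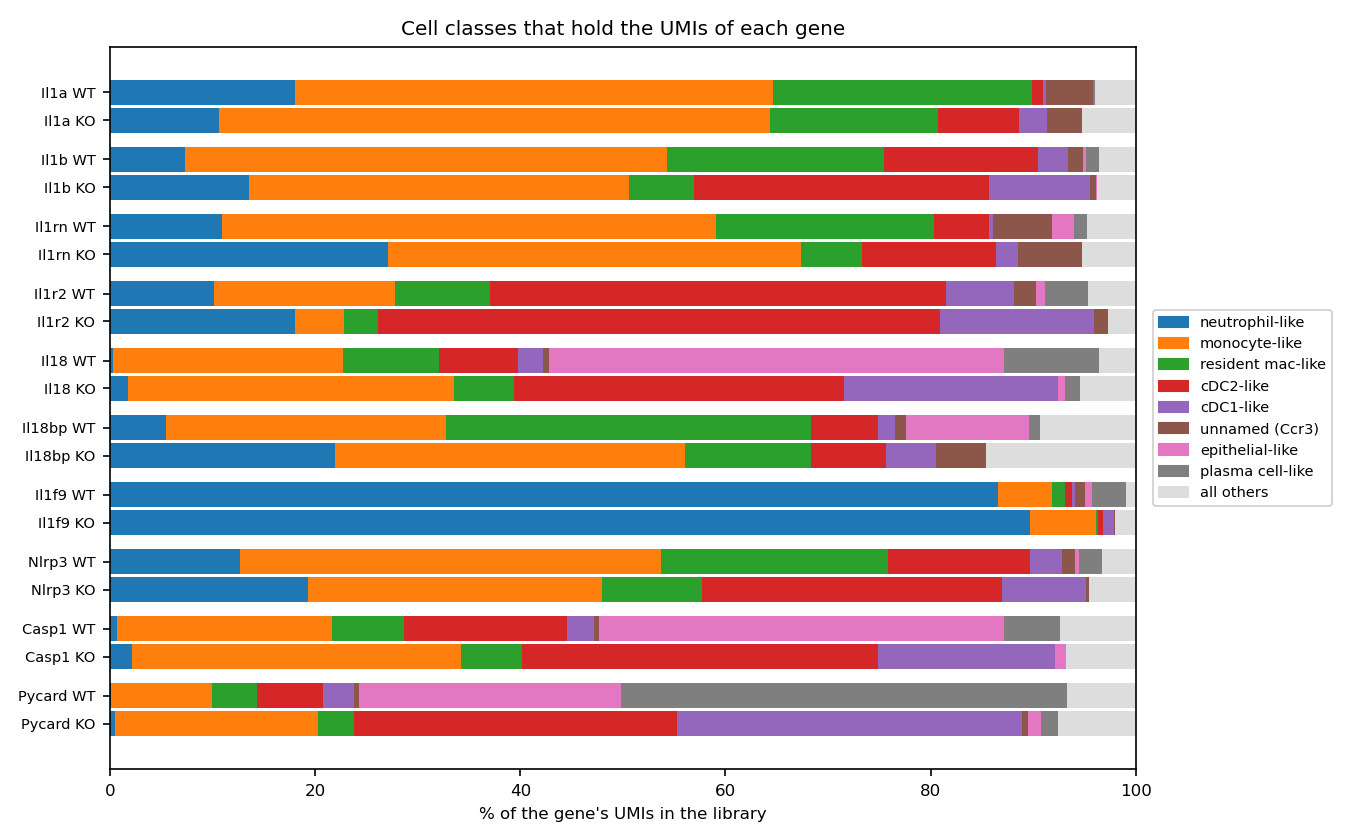
Percent of the UMIs of each member that lay in each cell class (colours) of the WT and KO library. Il1f9 lay in neutrophil-like cells (86.6% and 89.7%), while in WT the UMIs of Il18, Casp1 and Pycard lay to a large extent in epithelial-like or plasma cell-like cells, of which the KO library held 17 and 5.

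The inflammasome genes were not highest in the same cells. The sensor Nlrp3 was highest in neutrophil-like cells, as Il1b was, at 3724 CPM (3465 to 3998) in the WT and 3003 CPM (2887 to 3122) in the KO neutrophil-like cells, 809 and 921 CPM in monocyte-like cells, 719 and 999 CPM in resident macrophage-like cells, 314 and 507 CPM in cDC2-like cells and 145 and 211 CPM in cDC1-like cells. Its log2 ratio was -0.31 (-0.43 to -0.19) in neutrophil-like cells and positive in the others, from 0.19 (0.11 to 0.26) in monocyte-like to 0.69 (0.58 to 0.80) in cDC2-like cells. None of these was past 2-fold. In resident macrophage-like cells an Nlrp3 UMI was found, after thinning, in 45.5% (39.5 to 51.5%) of the WT and 65.4% (56.7 to 73.4%) of the KO cells. This stood next to the lower Ly6c2, Ccr2 and summed monocyte markers of the KO class given with Il1a.

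The adaptor Pycard was low in neutrophil-like cells. They had 5 UMIs or 24.3 CPM (7.90 to 56.8) in the WT and 10 UMIs or 11.9 CPM (5.70 to 21.8) in the KO library, the lowest level among these 5 classes in both libraries. The highest levels were in WT epithelial-like cells, at 411 CPM (385 to 438), and WT plasma cell-like cells, at 388 CPM (369 to 407). Monocyte-like cells had 118 and 101 CPM, resident macrophage-like cells 86.3 and 57.2 CPM, cDC2-like cells 88.9 and 86.4 CPM and cDC1-like cells 84.8 and 137 CPM (log2 ratio 0.69, 0.40 to 0.99). Casp1 was at 19.5 and 11.9 CPM in neutrophil-like cells, from 4 and 10 UMIs, and at 39.7 CPM (33.0 to 47.4) and 37.1 CPM (31.4 to 43.5) in monocyte-like cells. In WT epithelial-like cells it was at 100.4 CPM (87.8 to 114), and these held 39.4% of the WT Casp1 UMIs. With Nlrp3, Casp1 and Pycard required in the same cell at 2000 UMIs, 6 of 439 WT and 4 of 415 KO monocyte-like cells carried all 3. None of 51 WT and 236 KO neutrophil-like cells did, which allows up to 6.98% and 1.55%, and none of 229 and 122 resident macrophage-like cells. In cDC2-like cells 0 of 249 and 4 of 503 did, and in cDC1-like cells 0 of 101 and 2 of 286. The intervals of these 5 classes overlapped in both libraries, so no difference between them was detectable. Detection of low genes such as Casp1 was limited by depth.

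In the 5 named myeloid classes 0 to 4 members were past 2-fold. The call required at least 50 UMIs over both libraries and a 2-fold ratio with 1 CPM added to each level. In monocyte-like cells all 10 members were measured, and 2 were past 2-fold higher in KO (Il1a and Il1f9) and 2 lower (Il1r2 and Il18bp), beside 2.09% and 4.48% of all genes measured there. Over the processing alternatives the Il1f9 log2 ratio fell as low as -1.24 and that of Il1r2 came as near even as -0.44. The calls of Il1f9 and Il1r2 in this class therefore depended on the processing. In resident macrophage-like cells 1 of 8 was higher (Il1a) and 1 lower (Il18bp), beside 2.82% and 5.5% of all genes. Il1a was the single call in cDC2-like cells (1 of 8 higher and 0 lower, beside 2.63% and 5.85%) and in cDC1-like cells (1 of 8 and 0, beside 2.07% and 1.57%). In neutrophil-like cells none of 6 was called, beside 4.83% higher and 7.18% lower. In the Ccr3 cluster 1 of 5 was higher (Il1a) and 2 lower (Il1b and Nlrp3), beside 6.62% and 5.57%. In B cell-like cells, which served as background for them, all 4 members measured were lower in KO (Il1b, Il1rn, Il1r2 and Nlrp3), beside 0.835% of genes higher and 6.41% lower. T cell-like cells were not set as background, and Pycard was at 122 CPM in those of the WT library. There 3 of 4 were higher (Il1b, Il1r2 and Nlrp3) and 1 lower (Pycard), beside 2.94% and 10.1%. Within cluster 2, 1 of 9 was higher (Il1a) and 3 lower (Il18, Il18bp and Casp1), beside 2.33% and 9.04%, and within cluster 5, 2 of 9 were higher (Il1a and Il1f9) and 0 lower, beside 3.52% and 4.82%. The median log2 ratio of the measured members was -0.16 in monocyte-like and -0.31 in resident macrophage-like cells, beside -0.16 and -0.21 for all genes.

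The calls depended on the threshold. At 1.5-fold, 1 member was higher and 4 lower of 8 in resident macrophage-like cells, beside 7.48% and 21.2% of all genes. The 4 lower were Il1b, Il1rn, Il18bp and Pycard, and no direction is drawn for Il1b and Il1rn in this class. In neutrophil-like cells 0 were higher and 1 lower of 6, beside 14.1% and 20.5%. In cDC2-like cells 2 were higher and 1 lower of 8, beside 6.88% and 22.3%, and in cDC1-like cells 4 were higher and 0 lower of 8, beside 6.96% and 10.4%. With at least 200 UMIs and 2-fold, 1 of 7 was higher and 1 lower in monocyte-like cells, beside 2.11% and 3.04%, and 1 of 6 was higher and 0 lower in resident macrophage-like cells, beside 2.6% and 3.92%. None was called among 6 in cDC2-like cells (beside 2.11% and 3.31%) or among 5 in cDC1-like cells (beside 1.03% and 0.72%).

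Of 47 receptors, ligands, signalling genes, inflammasome partners, caspases and gasdermins, 28 had 50 UMIs in monocyte-like cells, of which 0 were past 2-fold higher and 1 lower (Il18rap, a chain of the interleukin 18 receptor, log2 ratio -1.22). In resident macrophage-like cells 0 of 20 were higher and 2 lower, namely Irak4, a kinase below the receptor (35.0 and 10.2 CPM), and Naip2, a sensor partner for bacterial proteins (31.8 and 9.40 CPM). In cDC2-like cells 1 of 29 was higher, Il1rl1, the receptor for interleukin 33 (5.25 and 15.1 CPM), and 2 were lower, Txnip and Naip6. In cDC1-like cells none of 26 was called, and in neutrophil-like cells 1 of 11, Tab2, was lower. In the Ccr3 cluster 3 of 10 were higher, namely Il1rl1 (65.3 and 199 CPM), Irak2, a kinase of the same pathway, and Txnip, and 0 were lower, with a median log2 ratio of 0.70 beside 0.07 for all genes. The shares of all genes past 2-fold are those given with the members. The signalling receptor Il1r1 was sparse in myeloid cells, with 29 and 37 UMIs in monocyte-like, 2 and 38 in cDC2-like and none in neutrophil-like cells, whereas its partner chain Il1rap was at 234 and 228 CPM in neutrophil-like cells.

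Patterns across cells were compared over 21 sums, each a class and library of at least 50 cells, for 4287 genes that reached 100 CPM in one of them. The gene most like Il1b on the log2(CPM + 10) scale was Nlrp3 (Pearson r 0.96), followed by Tnfaip2, Ptgs2, Lrrc25 and Cd300c2 (0.93 to 0.96). Il10rb and Rab20 were most like Il1rn (both 0.96). Among the members, Il1a correlated with Il1rn at 0.85, Il18 with Casp1 at 0.80 and Il1f9 with Pycard at -0.44. These sums share their library and depth, and classes were built from the same cells, so the values are descriptions.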

How the data were processed

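Per the file headers, the authors made the deposited UMI counts per gene and cell barcode with Cell Ranger 3.0.2, and the submitters' processing notes name mm10 and Seurat 4. The members and all gene lists were chosen with earlier results of these data known. Cells with 200 to 6000 detected genes and at most 15% mitochondrial UMIs were kept. Counts were scaled to 10000 per cell, and 2000 variable genes without the members, related and stress genes, 30 principal components, 15 neighbours and Leiden clustering at resolution 1 were used (scanpy 1.11.5, scikit-learn 1.9.0, leidenalg 0.10.2). A cluster was named from at least 3 markers raised 2-fold in at least 10% of its cells, with no more markers of another class among its top 10 genes. Scrublet called 1 WT and 9 KO cells (0.0385% and 0.358%), too few to serve as doublet removal, and its calls were not used. The libraries shared 1 barcode, and none among kept cells. Library totals were 22191774 UMIs in WT and 23384895 in KO.

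Levels carry exact Poisson intervals, shares exact Clopper-Pearson intervals and ratios exact conditional binomial intervals. With 1 library per genotype no test was possible. Only the ratio intervals and the 2-fold call were tried on simulated data, as Poisson counts from pooled resident macrophage-like and neutrophil-like sums. Such counts follow the model that the intervals assume and lack the clumping of UMIs in few cells. The trial therefore cannot show how the intervals hold for clumped genes such as Il1a. Genes named are the members, listed related genes past 2-fold and the 5 genes most like 4 members, with some cluster leaders and receptor genes chosen after their values were seen. Symbols of 30934 of the 31053 features were paired with GENCODE M21 by identifier.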

Additional observations from a re-analysis of the deposited data

Results flagged for a closer look

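Some members differed in opposite directions between cell classes, and none of these contrasts was tested, because each class has 1 library per genotype. Il1a was higher in KO cDC1-like cells (log2 ratio 3.92) and lower in KO neutrophil-like cells (-0.48), a difference of 4.39. Of the 59 KO UMIs behind the first value, 25 lay in 1 cell. For the neutrophil-like value no processing alternative was run, and its interval reached -0.09. The same neutrophil-like value stood against 2.24 in resident macrophage-like and 2.12 in monocyte-like cells. In lymphocytes, Il1b was higher in KO T cell-like cells (2.57) and lower in KO B cell-like cells (-5.44), a difference of 8.004. Nlrp3 differed there by 7.44, at 3.44 and -4.01, and Il1r2 by 3.27, at 1.54 and -1.73. Over the processing alternatives the T cell-like values ranged from 0.53 to 3.50 for Il1b, from 1.85 to 3.76 for Nlrp3 and from 0.068 to 2.83 for Il1r2, and the B cell-like values from -5.50 to -4.30, from -4.04 to -1.22 and from -1.99 to -0.81. The UMIs of these genes lay in few lymphocytes, since 5 cells held 82.4% of the 91 Il1b UMIs of KO T cell-like cells and 74.1% of the 259 of WT B cell-like cells. Without the top 3% of Scrublet scores the values for Il1b, Nlrp3 and Il1r2 were 0.53, 1.85 and 2.15 in T cell-like and -4.42, -3.39 and -1.45 in B cell-like cells. Some myeloid markers differed in the same direction. In WT against KO B cell-like cells the 12 neutrophil markers summed to 1081 and 30.5 CPM (1 and 6 at 0), with S100a8 at 340 and 7.62 CPM and Ccr2 at 73.9 and 5.08 CPM. In T cell-like cells the neutrophil markers summed to 54.1 and 256 CPM (4 and 2 at 0), with H2-Aa at 152 and 1309 CPM and Cd209a at 0 and 54.1 CPM, whereas the 12 inflammatory monocyte markers summed to 955 and 407 CPM (4 and 2 at 0). The part of free RNA was not tested. Il1rn was higher in KO cDC1-like cells (0.77) and lower in KO B cell-like cells (-4.29), a difference of 5.06, and the latter value ranged from -4.34 to -1.91. Pycard was higher in KO cDC1-like cells (0.69) and lower in KO T cell-like cells (-1.14, with a range of -1.62 to -0.999), a difference of 1.82. The make-up of the T cell-like class moved between the libraries, since its 10 natural killer cell markers summed to 10580 CPM in WT against 189 CPM in KO (2 and 2 at 0), its 10 plasma cell markers to 5005 against 70.4 CPM (0 and 4 at 0) and its 10 T cell markers to 4004 against 3292 CPM, and Pycard stood at 388 CPM in WT plasma cell-like cells. Their part in the T cell-like differences was not tested.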

How the results depend on the processing

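The Il1a log2 ratio kept its sign under all 11 alternatives in resident macrophage-like (2.04 to 2.73), monocyte-like (1.03 to 2.98), cDC2-like (2.46 to 4.19) and cDC1-like cells (2.47 to 4.04), and so did that of Il18bp in resident macrophage-like (-3.76 to -2.47) and monocyte-like cells (-2.72 to -1.09). The same alternatives for Il1rn and Nlrp3 were chosen after seeing the data. Il1rn ranged from -1.02 to 0.19 in resident macrophage-like, -0.96 to -0.26 in monocyte-like, -0.43 to -0.023 in neutrophil-like and -0.72 to 0.78 in cDC2-like cells. Nlrp3 kept its sign in these 4 classes, with ranges of 0.30 to 0.62, 0.079 to 0.45, -0.38 to -0.0099 and 0.35 to 0.74 in the same order. Its neutrophil-like value thus came close to even. Il1r2 in monocyte-like cells ranged from -2.11 to -0.44. Il1f9 in monocyte-like cells was -1.24 at Leiden resolution 2, and the cause was not tested.

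Il1b in resident macrophage-like cells was -0.39 under the stricter filter (500 to 5000 genes, at most 10% mitochondrial UMIs), -0.060 at Leiden resolution 0.5, -0.49 with 4000 variable genes, 0.067 with each library clustered alone, -0.21 with the class of the highest marker score and -0.54 without the top 3% of Scrublet scores. In monocyte-like cells these settings gave -0.17, -0.17, -0.37, -0.77 and -0.53 in the same order without the last, with -0.62 at Leiden resolution 2, -0.14 as a mean over cells and -0.35 without the 5% of cells with the most Il1b. In neutrophil-like cells Il1b was -0.76 under the stricter filter and -0.41 with each library clustered alone. In cDC2-like cells it was -0.16 under the stricter filter, 0.27 with 4000 variable genes, -0.17 by marker score, -0.16 as a mean over cells and -0.15 without the top 5%. The difference in agonist to antagonist balance in resident macrophage-like cells was 0.15 at Leiden resolution 0.5, 0.025 with each library clustered alone and 0.22 by marker score. In monocyte-like cells it was 0.51 under the stricter filter, 0.46 at Leiden resolution 0.5, 0.63 with 4000 variable genes and 0.26 with each library clustered alone. In cDC2-like cells it was 0.035, -0.44 and 0.67 under the stricter filter, 4000 variable genes and separate clustering, and -0.37 without the top 5%, so its direction is not settled. Under the stricter filter, at Leiden resolution 0.5 and with 4000 variable genes the resident class grew to 747, 769 and 851 WT cells while the monocyte-like class shrank to 72, 86 and 50.

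At 1.5-fold, 5 members were called in resident macrophage-like (4 of them lower in KO), 1 in neutrophil-like (lower), 3 in cDC2-like (1 lower) and 4 in cDC1-like cells (0 lower), and with at least 200 UMIs 1 in resident macrophage-like, 2 in monocyte-like, 0 in cDC2-like and 0 in cDC1-like cells. At 1.5-fold the shares of all genes higher and lower in KO were 7.48% and 21.2% in resident macrophage-like and 14.1% and 20.5% in neutrophil-like cells. They were 6.88% and 22.3% in cDC2-like and 6.96% and 10.4% in cDC1-like cells. The shares with at least 200 UMIs are those given in the Results. Shares of cells were within the main counting interval in 43 of 100 values at 2000 UMIs and 16 of 100 without thinning. Such a share generally rises with the depth kept, so these counts do not bear on the comparison of WT with KO. No paired analysis was possible because each genotype has 1 library.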
